A study of Mus musculus with 6 samples.

Results

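The genes described here code for the actin cytoskeleton of the cell: the serum response factor gene Srf, actins, tropomyosins, myosin chains, actin-binding proteins and proteins of focal adhesions. They were chosen by gene symbol, 45 in all. Of these, 39 were matched to a probe, among 16561 named genes, and for Actg1, Myl9, Cnn3, Tagln2, Ezr and Arpc2 array values were not analysed here, only promoter windows. Each gene was read through 1 probe, the one with the highest mean non-normalized intensity over all arrays.

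The RNA came from TUBO cells, an epithelial line established from a breast tumour of the BALB-neuT mouse strain, in which an activated rat neu transgene drives mammary tumours. Cells were measured on 6 single-colour Illumina bead arrays, 3 titled TMA and 3 titled TDA. By title, TMA is adherent culture in serum-free DMEM-F12 mammosphere medium with bFGF at 20 ng/ml, EGF at 20 ng/ml, insulin at 5 µg/ml and bovine serum albumin at 0.4%, and TDA is culture in DMEM supplemented with fetal calf serum at 20%. The samples' source names state the media the other way round, so the groups keep the names TMA and TDA here, and which medium lies behind a difference is not settled. Both groups are the same line without further treatment, and separate cultures are not stated for the 3 replicates, so the p-values reflect only how these samples vary, which may be technical. All arrays lay on 1 BeadChip, TMA in its first 3 positions and TDA in its last 3, so position and group cannot be told apart.

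SRF binds a short element called the CArG box. Its MRTF cofactors are held in the cytoplasm by monomeric actin and move to the nucleus when actin polymerises, while its ternary complex cofactors, such as ELK1, respond to ERK signalling. The first route is known for genes of contraction and adhesion, the second for immediate early genes. In mammary epithelium, smooth muscle forms of these proteins mark myoepithelial cells, and non-muscle forms serve all cells.

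The promoter windows below show which members hold letters that match the CArG box near an annotated start. Binding of SRF was not measured, and bases outside the windows were not searched. A window runs from 250 bases before to 50 bases after an annotated start (RefSeq, build GRCm38.p6), and 42 members had 52 such windows. The other 3 members, Actb, Tagln and Pxn, had no window and were not searched. A full CArG box stood in a window of 9 of 42 member genes, or 21.4%, against 488 of 27025 genes in the promoter table, or 1.81%. These 9 were Srf, Actg1, Myl6, Myl9, Cnn2, Vcl, Fhl1, Fhl2 and Vil1. The element reads the same on both strands, and the members include known SRF targets, so the share is a description of the list. With 1 mismatch allowed, 19 of 42 member genes held one, 45.2%, against 23.8% of all genes. Each stretch of 120 bases is printed 5′ to 3′ on the strand given, ending 1 base before the start except for Vcl, where it covers bases 250 to 131 before it. Capitals mark a CArG box with at most 1 mismatch. The first 5 are the genes with a full box whose probe was tested on the arrays, Tpm1 holds only boxes with a mismatch, and Myl12b and Myh9 are the genes whose difference passed the test.
Srf, chr17:46556163-46556282, minus strand: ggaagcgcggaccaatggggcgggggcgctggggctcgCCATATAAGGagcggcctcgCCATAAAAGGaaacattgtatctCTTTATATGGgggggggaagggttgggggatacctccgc
Cnn2, chr10:79988480-79988599, plus strand: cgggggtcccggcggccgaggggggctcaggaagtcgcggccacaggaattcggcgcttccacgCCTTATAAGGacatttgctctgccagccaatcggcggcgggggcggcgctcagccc
Fhl2, chr1:43196762-43196881, minus strand: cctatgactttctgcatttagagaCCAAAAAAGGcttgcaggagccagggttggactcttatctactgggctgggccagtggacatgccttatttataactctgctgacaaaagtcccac
Myl6, chr10:128493010-128493129, minus strand: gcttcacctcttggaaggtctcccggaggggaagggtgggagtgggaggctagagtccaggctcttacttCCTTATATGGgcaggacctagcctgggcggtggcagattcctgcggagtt
Vcl, chr14:20929148-20929267, plus strand: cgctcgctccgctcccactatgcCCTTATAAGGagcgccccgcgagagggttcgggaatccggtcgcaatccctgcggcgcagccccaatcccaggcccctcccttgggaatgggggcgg
Tpm1, chr9:67049214-67049333, minus strand: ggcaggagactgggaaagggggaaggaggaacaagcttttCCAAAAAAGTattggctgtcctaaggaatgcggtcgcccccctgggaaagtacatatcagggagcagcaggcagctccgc
Myl12b, chr17:70990517-70990636, minus strand: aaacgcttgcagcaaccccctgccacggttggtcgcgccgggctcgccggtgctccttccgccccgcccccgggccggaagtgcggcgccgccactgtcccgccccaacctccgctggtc
Myh9, chr15:77842176-77842295, minus strand: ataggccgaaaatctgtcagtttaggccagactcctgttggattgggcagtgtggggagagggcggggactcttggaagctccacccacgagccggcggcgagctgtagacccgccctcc
Srf held full boxes starting 82 and 62 bases before its start, and another with 1 mismatch 39 bases before it. Those of Cnn2 and Myl6 began 56 and 50 bases before the start, that of Vcl 227 bases before it. Fhl2 had a box in each of its 2 windows, 96 and 31 bases before the annotated starts. No match, full or with 1 mismatch, was found in the Myl12b and Myh9 windows, which says only that these letters are not there.

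**Figure D1:**
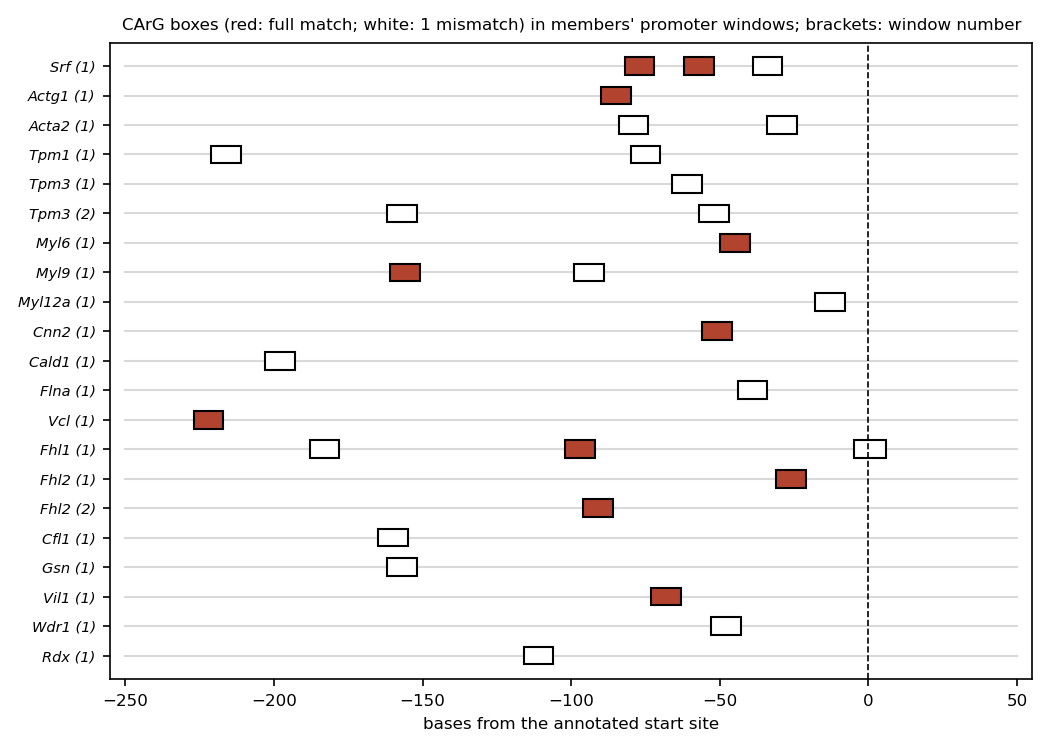
Position of CArG boxes in the promoter windows of member genes that hold at least 1, in bases from the annotated start site (dashed line at 0, grey line the window searched). Filled boxes are full matches and open boxes have 1 mismatch. Srf holds 2 full matches in 1 window, and the full match of Vcl, 227 bases before its start, lies farthest out.

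A pair of genes of the non-muscle myosin motor were higher on the TMA arrays, Myl12b by 2.61-fold and Myh9 by 1.87-fold, and no other member passed the test on the probe that represents it. Differences are TMA minus TDA on the log2 scale, with an adjusted p threshold of 0.05 in limma, Benjamini-Hochberg over all 12848 tested probes. Probes entered the test with a mean log2 level above 7.01, the median probe, and 32 of the 39 members did so. Of those 32, 2 rose and 0 fell. Over all 8961 genes tested the same rule called 3.44%, with 1.72% higher and 1.72% lower. An unadjusted p under 0.05 was seen in 7 members, 6 with a positive and 1 with a negative difference, against 19.4% of all genes, 10.1% higher and 9.28% lower. The groups did not overlap for 5 members with TMA higher (12.4% of all genes) and for 2 with TMA lower (11.4% of all genes). Over the tested members, 21 differences lay above 0 and 11 below, against 49.3% of all genes above 0. Their median was 0.17, against a median of -0.00499 over all genes. The SD of the differences was 0.46 over the members and 0.45 over all genes, so the members ranged about as widely as other genes did. The members were brighter on average than all genes, and genes of like brightness were not compared. In bulk RNA a change in the share of cells and a change in RNA per cell cannot be told apart.

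The 2 calls were lost when any 1 of several arrays was left out, though the differences stayed positive. With 1 array left out, the difference ranged from 1.23 to 1.65 for Myl12b and from 0.81 to 1.01 for Myh9. In limma, leaving out TMA2 gave 0 called members (4 at unadjusted p under 0.05), as did leaving out TMA3 (5), TDA1 (4) or TDA3 (6). Without TMA1 or TDA2 it called 3 members each time: Myl12b, Myh9 and Tpm1. Over all probes the count of 387 called became 682 without TMA1, 21 without TMA2, 3 without TMA3, 8 without TDA1, 658 without TDA2 and 112 without TDA3. An unmoderated test called 0 members, with 5 at unadjusted p under 0.05.

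**Figure D2:**
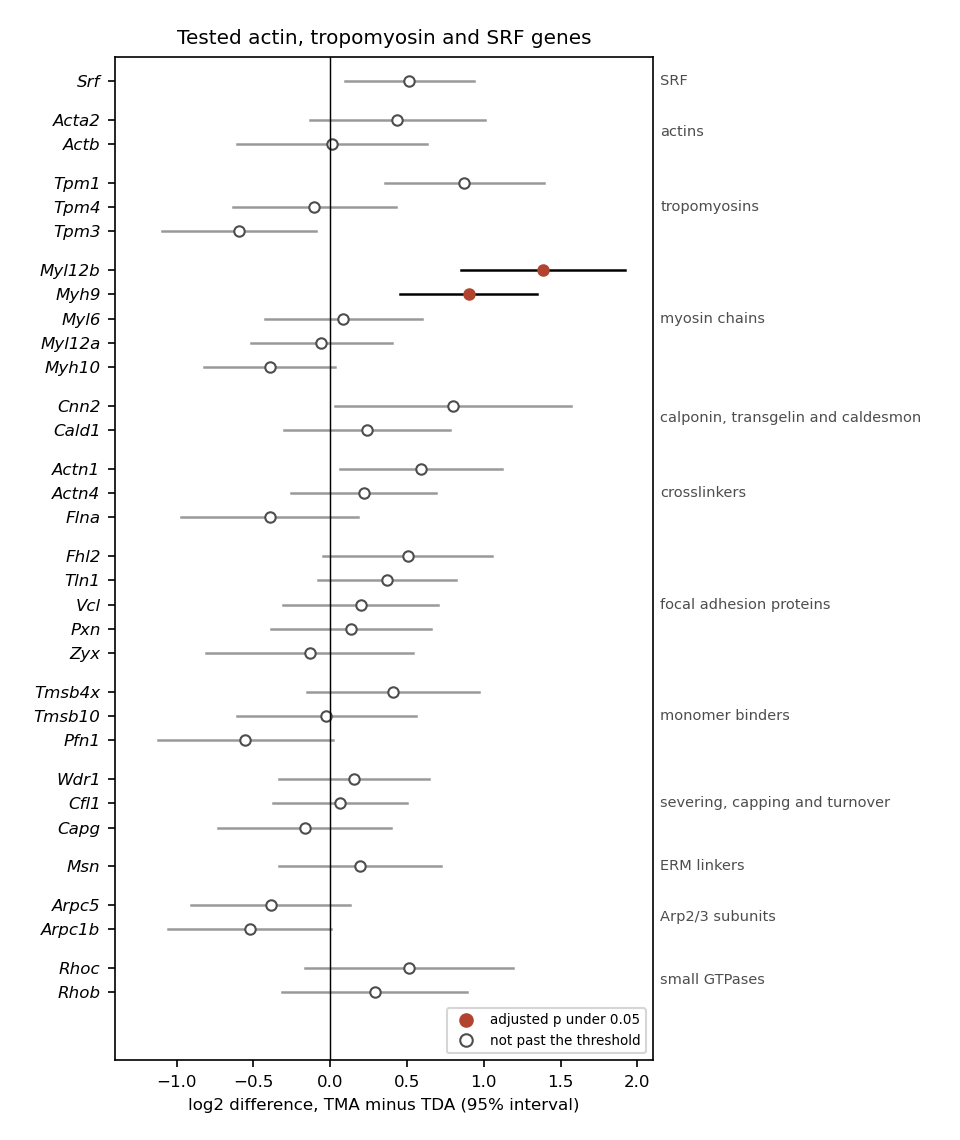
Log2 differences (TMA minus TDA) of the 32 tested member genes with 95% intervals from the limma fit, grouped by role. Filled points passed an adjusted p of 0.05 (Myl12b at 1.39 and Myh9 at 0.90), and open points did not.

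Srf, the transcription factor itself, read 10.05, 10.08 and 10.36 on TMA1, TMA2 and TMA3, against 9.64, 9.67 and 9.63 on TDA1, TDA2 and TDA3. The 3 TDA arrays lay within a narrow band and all TMA arrays above it. The difference was 0.52 with a standard error of 0.19 and a 95% interval of 0.10 to 0.93 (adjusted p = 0.170), which did not pass over all probes. A second Srf probe was too dim to be tested.

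Of the actins, Actb, the cytoplasmic beta-actin, read 15.02, 14.91 and 15.63 on TMA1, TMA2 and TMA3, against 15.48, 14.57 and 15.48 on TDA1, TDA2 and TDA3. This probe was very bright, and normalization by quantiles sets a value by its rank on the array. Raw intensities of 60442 on TDA1 and 38892 on TDA3 thus both became 15.48. The groups overlapped, with TDA2 the lowest array, and the difference of 0.01 had a 95% interval of -0.60 to 0.63; changes within that interval were not detectable with these arrays. Its sign depended on the scaling, at -0.13 with median scaling and -0.12 in the authors' table. The 4 other Actb probes, all tested, had differences of -0.35, -0.78, -1.03 and -1.16, and none passed the threshold. On 2 of the 4 every TMA array lay below every TDA array. The one at -1.03 (standard error 0.29, adjusted p = 0.0732) read 11.65, 12.35 and 12.83 on TMA1, TMA2 and TMA3, against 13.25, 13.65 and 13.04 on TDA1, TDA2 and TDA3. The one at -1.16 (adjusted p = 0.160) was dim, at 6.72, 7.79 and 7.61 on TMA1, TMA2 and TMA3, against 7.80, 9.66 and 8.13 on TDA1, TDA2 and TDA3. The probes of this gene thus differed widely among themselves.
Acta2, the smooth muscle alpha-actin and a marker of myoepithelial cells, sat close to the filter at 7.59, 7.67 and 7.62 on TMA1, TMA2 and TMA3, against 7.42, 7.61 and 6.56 on TDA1, TDA2 and TDA3. Only TDA3 lay clearly below the rest, without which the difference was 0.12. With it the difference was 0.44 (standard error 0.26, adjusted p = 0.415).

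Tropomyosins, the coiled coils that lie along actin filaments, went in both directions. Tpm1 read 13.33, 13.92 and 14.15 on TMA1, TMA2 and TMA3, against 12.79, 13.12 and 12.87 on TDA1, TDA2 and TDA3. All TMA arrays were above all TDA arrays, TMA1 by the least, and the difference of 0.87 (standard error 0.24, 95% interval 0.36 to 1.39) had an adjusted p of 0.0680. Without TMA1 the difference was 1.11 with an adjusted p of 0.0206, and without TDA2 0.97 with an adjusted p of 0.0377. Tpm3 lay on the other side of 0, at 10.96, 10.22 and 10.75 on TMA1, TMA2 and TMA3, against 11.39, 11.04 and 11.29 on TDA1, TDA2 and TDA3. The groups did not overlap, with TMA1 nearest to TDA2, and the difference was -0.60 (standard error 0.23, adjusted p = 0.187). A second tested Tpm3 probe differed by 0.00292, and 2 more were below the filter. Tpm4 differed by -0.10 (95% interval -0.63 to 0.43), and all 3 probes of Tpm2, a form abundant in muscle, were below the filter. Tropomyosin genes give many spliced forms, so a probe reads only those forms that hold its target.

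**Figure D3:**
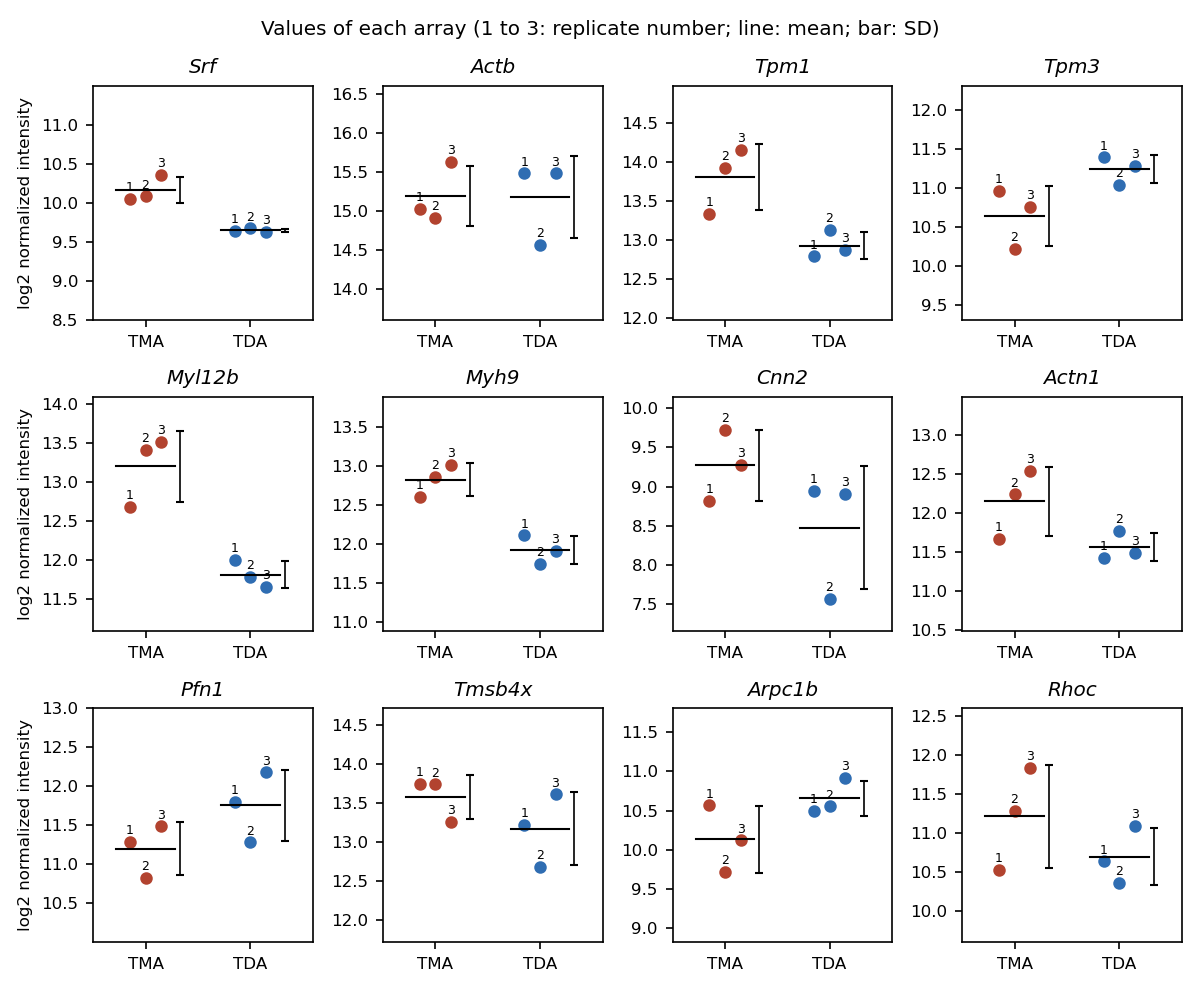
Log2 normalized intensities of 12 member genes on each TMA array and each TDA array. Points carry the replicate number, lines are group means and bars the SD (n = 3 each), and every panel spans the same range of log2 units. The groups are apart for Srf, Tpm1, Tpm3, Myl12b and Myh9, and TDA2 is the lowest TDA array for Actb, Tpm3, Myh9, Cnn2, Pfn1, Tmsb4x and Rhoc.

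Non-muscle myosin II, the motor that pulls actin filaments together, is built of heavy chains, regulatory light chains and essential light chains. Myl12b, a regulatory light chain, rose on the TMA arrays. It read 12.68, 13.41 and 13.52 on TMA1, TMA2 and TMA3, against 12.003, 11.78 and 11.66 on TDA1, TDA2 and TDA3. Every TMA array lay above every TDA array, with means of 13.20 ± 0.46 and 11.82 ± 0.17 (SD, n = 3 each), differing by 1.39 (standard error 0.24, limma adjusted p = 0.0147). Its 2 other probes gave 1.19 and 1.23, with adjusted p of 0.0966 and 0.0721, and on the first of these TMA1 at 11.11 lay below TDA3 at 11.20. With all tested probes of the gene averaged, the difference was 1.27 and its adjusted p 0.0536. The Myl12b call was lost when TMA2 (adjusted p = 0.0899), TMA3 (0.110), TDA1 (0.0717) or TDA3 (0.0557) was left out.
Myl12a, a second regulatory light chain whose gene neighbours Myl12b on chromosome 17 with 0 annotated genes between them, read 8.49, 8.39 and 8.39 on TMA1, TMA2 and TMA3, against 8.63, 8.68 and 8.13 on TDA1, TDA2 and TDA3. Those groups overlapped, and the difference was -0.06 (95% interval -0.51 to 0.40). The coding sequences of these light chains are very similar, so a probe for one may read the other. The difference between the 2 genes was not tested.

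Myh9, the heavy chain of non-muscle myosin IIA, also rose. It read 12.60, 12.87 and 13.02 on TMA1, TMA2 and TMA3, against 12.11, 11.75 and 11.92 on TDA1, TDA2 and TDA3. The groups were apart on every array, with means of 12.83 ± 0.21 and 11.93 ± 0.18 (SD, n = 3 each) and a difference of 0.90 (standard error 0.21, limma adjusted p = 0.0402). Its adjusted p was 0.158 when TMA2 was left out, 0.191 for TMA3, 0.118 for TDA1 and 0.0920 for TDA3. Myh10, the heavy chain of non-muscle myosin IIB, had a difference of the opposite sign: 7.47, 7.41 and 7.10 on TMA1, TMA2 and TMA3, against 7.78, 7.65 and 7.74 on TDA1, TDA2 and TDA3. All TMA arrays were below all TDA arrays, by -0.39 (standard error 0.20, adjusted p = 0.315), which did not pass. The Myh10 probe was dim, near the filter, and its difference was -0.21 in the authors' table. Myl6, the essential light chain shared by non-muscle and smooth muscle myosin, differed by 0.09 (95% interval -0.42 to 0.60) although its promoter window holds a full CArG box.

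Calponins and caldesmon, which bind actin filaments and restrain myosin, were represented by Cnn2 and Cald1. Cnn2, the broadly expressed calponin, read 8.82, 9.73 and 9.28 on TMA1, TMA2 and TMA3, against 8.95, 7.56 and 8.91 on TDA1, TDA2 and TDA3. TDA2 lay far below all others, TMA1 lay below TDA1 and TDA3, and the difference of 0.80 had a standard error of 0.35 (adjusted p = 0.249). Without TDA2 the Cnn2 difference was 0.35, and a second tested probe gave 0.00435. Cald1 read 8.35, 8.68 and 8.88 on TMA1, TMA2 and TMA3, against 8.59, 7.91 and 8.69 on TDA1, TDA2 and TDA3, a difference of 0.24 (adjusted p = 0.682), with overlap and TDA2 again lowest. Cnn1 and Tagln, smooth muscle forms that are classic SRF targets, were below the filter on their only probes, with values from 6.599 to 7.18 on the TMA arrays and 6.59 to 7.24 on the TDA arrays.

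Among crosslinkers, which tie filaments into bundles and nets, Actn1, alpha-actinin of stress fibres, read 11.68, 12.24 and 12.54 on TMA1, TMA2 and TMA3, against 11.43, 11.77 and 11.50 on TDA1, TDA2 and TDA3. Only TMA1 reached into the TDA range, just under TDA2, and the difference was 0.59 (standard error 0.24, 95% interval 0.06 to 1.12, adjusted p = 0.215). Flna, filamin A, read 9.73, 8.97 and 9.42 on TMA1, TMA2 and TMA3, against 9.49, 10.26 and 9.54 on TDA1, TDA2 and TDA3. The groups overlapped, TDA2 was the highest array, and the difference was -0.40 (adjusted p = 0.479). Actn4, the second non-muscle alpha-actinin, differed by 0.22 (95% interval -0.25 to 0.69), and its other probes by 0.49 and 0.18.

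At focal adhesions, where integrins meet actin, 5 of 6 members were tested and 0 passed, with 0 at unadjusted p under 0.05. Fhl2, a LIM-domain protein and SRF target, read 6.93, 7.48 and 7.92 on TMA1, TMA2 and TMA3, against 7.11, 6.87 and 6.84 on TDA1, TDA2 and TDA3, a difference of 0.50 (adjusted p = 0.315). TMA1 lay inside the TDA range. Tln1, talin, which links integrins to actin, read 6.97, 7.48 and 7.45 on TMA1, TMA2 and TMA3, against 6.90, 6.95 and 6.95 on TDA1, TDA2 and TDA3, a difference of 0.37 (adjusted p = 0.380). TMA1 was barely above the TDA arrays, and both genes sat near the filter. Vcl, vinculin, differed by 0.20 (95% interval -0.31 to 0.70), Pxn, paxillin, by 0.14 (-0.38 to 0.66) and Zyx, zyxin, by -0.13 (-0.81 to 0.54). Fhl1, a LIM protein of muscle, was below the filter.

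Proteins that hold or hand over actin monomers differed by probe. Pfn1, profilin, which loads monomers onto filament ends, read 11.29, 10.82 and 11.48 on TMA1, TMA2 and TMA3, against 11.80, 11.28 and 12.18 on TDA1, TDA2 and TDA3. The groups overlapped through TDA2, and the difference was -0.55 (standard error 0.26, adjusted p = 0.288). Its dimmer second probe read 10.18, 10.004 and 9.99 on TMA1, TMA2 and TMA3, against 11.26, 10.91 and 11.42 on TDA1, TDA2 and TDA3. There every TMA array lay below every TDA array, and the probe fell by 1.14 on the log2 scale (standard error 0.21, limma adjusted p = 0.0173). This call was lost when TMA2 (adjusted p = 0.0875), TMA3 (0.111), TDA1 (0.1000) or TDA3 (0.0607) was left out. Tmsb4x, thymosin beta 4, the main sequesterer of monomers, read 13.74, 13.74 and 13.25 on TMA1, TMA2 and TMA3, against 13.22, 12.69 and 13.61 on TDA1, TDA2 and TDA3, a difference of 0.41 (adjusted p = 0.447) with TDA3 above TMA3. Tmsb10 differed by -0.03 (95% interval -0.61 to 0.56), and its other tested probes by -0.44 and -0.50.

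Of 5 genes of filament turnover, 3 were tested and 0 passed, with 0 at unadjusted p under 0.05. Wdr1, which helps cofilin take filaments apart, read 12.07, 11.62 and 11.85 on TMA1, TMA2 and TMA3, against 11.43, 11.60 and 12.05 on TDA1, TDA2 and TDA3, a difference of 0.16 (95% interval -0.33 to 0.64). Capg, a capping protein, read 11.34, 11.41 and 12.21 on TMA1, TMA2 and TMA3, against 11.52, 12.02 and 11.91 on TDA1, TDA2 and TDA3, a difference of -0.17 (95% interval -0.73 to 0.40). The groups overlapped for both genes. Cfl1, cofilin, differed by 0.06 (95% interval -0.37 to 0.50) on a dim probe near the filter, at 7.47 to 7.89 over all arrays. The severing proteins Gsn and Vil1 were below the filter.

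Msn, moesin, which anchors actin to the membrane, read 8.86, 8.99 and 9.32 on TMA1, TMA2 and TMA3, against 8.45, 9.29 and 8.85 on TDA1, TDA2 and TDA3, a difference of 0.19 (95% interval -0.33 to 0.72). Rdx, radixin of the same family, was below the filter. Both tested subunits of the Arp2/3 complex, which starts branched filaments, had negative differences. Arpc1b read 10.57, 9.71 and 10.12 on TMA1, TMA2 and TMA3, against 10.50, 10.55 and 10.91 on TDA1, TDA2 and TDA3, a difference of -0.52 (standard error 0.24, adjusted p = 0.278). TMA1 lay above TDA1 and TDA2, so the groups overlapped. Its 2 other probes gave -0.65 and -0.78, the second with an adjusted p of 0.0966. Arpc5 read 13.41, 12.77 and 12.76 on TMA1, TMA2 and TMA3, against 13.45, 13.57 and 13.07 on TDA1, TDA2 and TDA3, a difference of -0.39 (adjusted p = 0.429), again with TMA1 alone inside the TDA range.

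Rhob and Rhoc, small GTPases that set contractility and filament assembly, had positive differences that did not pass. Rhoc read 10.53, 11.28 and 11.84 on TMA1, TMA2 and TMA3, against 10.64, 10.37 and 11.10 on TDA1, TDA2 and TDA3, a difference of 0.51 (standard error 0.31, adjusted p = 0.421). Rhob read 10.53, 10.18 and 9.93 on TMA1, TMA2 and TMA3, against 9.96, 9.36 and 10.45 on TDA1, TDA2 and TDA3, a difference of 0.29 (adjusted p = 0.648). The groups overlapped for both, and TDA2 was the lowest TDA array. Without TDA2 the Rhob difference was 0.0088, and without TMA3 the Rhoc difference was 0.20.

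Of the 39 members, 18 had more than 1 probe, and for 14 more than 1 was tested. The tested probes of 11 of these 14 genes had differences of 1 sign, and those of Actb, Tpm3 and Wdr1 did not. Over all 53 tested member probes, 3 passed the threshold, against 3.01% of all tested probes: the brightest probe of Myl12b, the probe of Myh9 and the second probe of Pfn1.

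**Figure D4:**
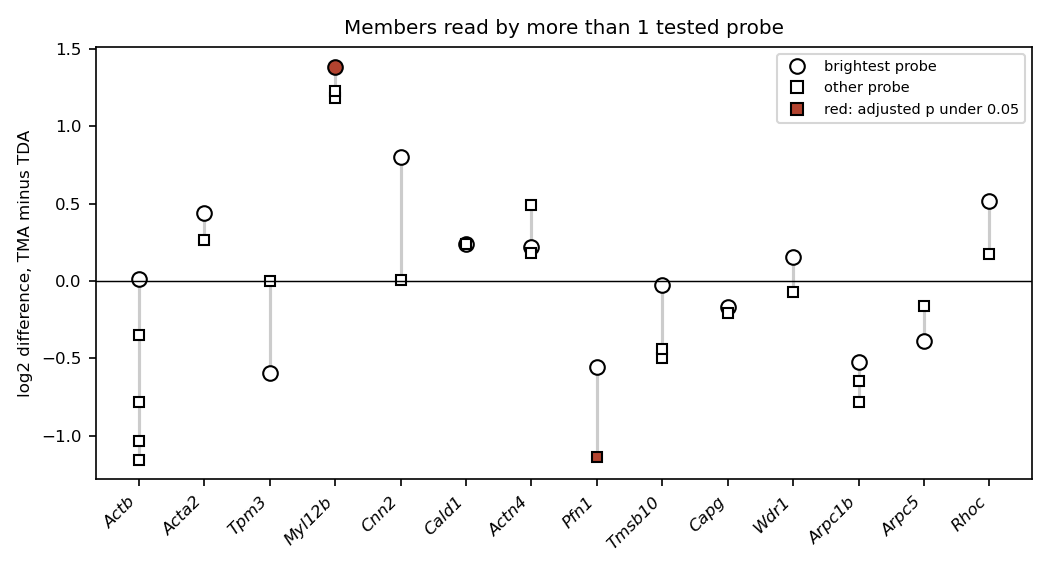
Log2 differences (TMA minus TDA) of every tested probe of the 14 member genes read by more than 1 tested probe. Circles are the brightest probe of a gene and squares the others, and filled symbols passed an adjusted p of 0.05. Actb probes spread from 0.01 to -1.16, and the 3 Myl12b probes lie between 1.19 and 1.39.

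The members also varied within the groups. The median SD between arrays of 1 group was 0.34 over the tested members and 0.26 over all tested genes. The sets differ in brightness, with mean log2 levels per array of 10.56 to 10.94 for members and 8.60 to 8.63 for all genes. TDA2 was the lowest TDA array for 14 of 32 members, or 43.8%, against 38.1% of all genes, and TMA1 was the lowest TMA array for 16 of 32, or 50%, against 35.2% of all genes. TDA2 was the highest TDA array for 11 members, or 34.4%, against 39.2% of all genes. TMA1 was the highest TMA array for 13, or 40.6%, against 36.5% of all genes. TMA3 was the highest TMA array for 14, or 43.8%, against 29.1% of all genes. It was the lowest for 5, or 15.6%, against 30.1%. TMA2 was the highest for 5, or 15.6%, against 34.4%. The mean level of the members was 10.94 on TMA3, against 10.75 on TMA1 and 10.76 on TMA2. TMA1 also lay nearest to the TDA group on the first principal component of all tested probes, at -5.74, against -37.3 and -29.4 for TMA2 and TMA3 and 20.4 to 28.9 for the TDA arrays. Of the members with a full CArG box, 5 were tested, Srf, Cnn2, Fhl2, Myl6 and Vcl. All 5 differences were above 0, against 49.3% of all genes, with a median of 0.50. In limma 0 passed, with Srf and Cnn2 at unadjusted p under 0.05. Fhl1 and Vil1 also held a full box but were below the filter, with differences of -0.33 and 0.24. Of 25 tested members in the promoter table without a full box, 14 were above 0, with a median of 0.16, and 2 passed. Some of the 25, such as Tpm1 and Acta2, held boxes with 1 mismatch. The difference between these sets was not tested.

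Among further genes of the same pathways, the called ones were immediate early SRF targets, other MRTF and SRF targets and an integrin. Differences between the lists were not tested. Of 103 further genes in 8 lists, 66 were tested, and 6 rose and 0 fell, with a median difference of 0.18. Over all tested genes 3.44% were called, 1.72% in each direction. An unadjusted p under 0.05 was seen in 18 of the 66, against 19.4% of all genes. Immediate early targets had 3 of 8 tested genes past the threshold, all higher: Fos and Egr1, transcription factors made within minutes of a growth signal, by 1.71 and 1.46 (adjusted p of 0.0235 and 0.0379), and Mcl1, a survival protein of the BCL2 family. Mcl1 read 10.54, 11.20 and 10.93 on TMA1, TMA2 and TMA3, against 9.66, 10.28 and 9.47 on TDA1, TDA2 and TDA3. Its groups did not overlap, and the difference was 1.09 (standard error 0.25, limma adjusted p = 0.0434). Of 11 further MRTF and SRF targets the matricellular genes Ccn1 and Ccn2 rose, by 1.85 and 2.51 (limma adjusted p of 0.0426 and 0.0179). Both are also targets of YAP. Ccn1 read 8.10, 10.11 and 9.79 on TMA1, TMA2 and TMA3, against 7.02, 7.93 and 7.50 on TDA1, TDA2 and TDA3. Its TMA1 value lay close to TDA2. With all tested probes of Ccn1 averaged, the difference was 1.45 and its limma adjusted p 0.0746. Ccn2 read 9.30, 10.25 and 11.63 on TMA1, TMA2 and TMA3, against 7.57, 8.47 and 7.59 on TDA1, TDA2 and TDA3.

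Integrins and adhesion adaptors had 1 of 13 past the threshold. Itga3, the alpha subunit of a laminin receptor of epithelia, read 11.73, 12.38 and 12.24 on TMA1, TMA2 and TMA3, against 10.90, 10.74 and 10.86 on TDA1, TDA2 and TDA3. The groups were far apart, and the difference was 1.28 (standard error 0.22, limma adjusted p = 0.0132). Of the 66 further genes, limma called 0 when TMA2 was left out (12 at unadjusted p under 0.05), 0 for TMA3 (13), 0 for TDA1 (15) and 1, Itga3, for TDA3 (20).

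In 4 further lists limma called 0 genes. Of 12 capping, severing and bundling genes, 3 had an unadjusted p under 0.05, and Dstn, destrin, a relative of cofilin, came nearest. It read 13.68, 14.43 and 14.01 on TMA1, TMA2 and TMA3, against 13.15, 12.24 and 13.43 on TDA1, TDA2 and TDA3, a difference of 1.10 (adjusted p = 0.0705), while muscle cofilin Cfl2 differed by 0.54 (adjusted p = 0.216). Of 4 SRF cofactors, 1 had an unadjusted p under 0.05: Myocd, the smooth muscle cofactor, at 0.63 (adjusted p = 0.182), followed by Mrtfb at -0.38 (adjusted p = 0.382), both from dim probes. Of 7 further Arp2/3 genes, 1 did, the subunit gene Arpc4 at -0.61 (adjusted p = 0.153), and the activator Wasl stood at 0.34. Among 5 formin and VASP genes, 0 had an unadjusted p under 0.05. Diaph3 and Daam1, formins that lengthen straight filaments, differed by -0.40 and 0.36.

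**Figure D5:**
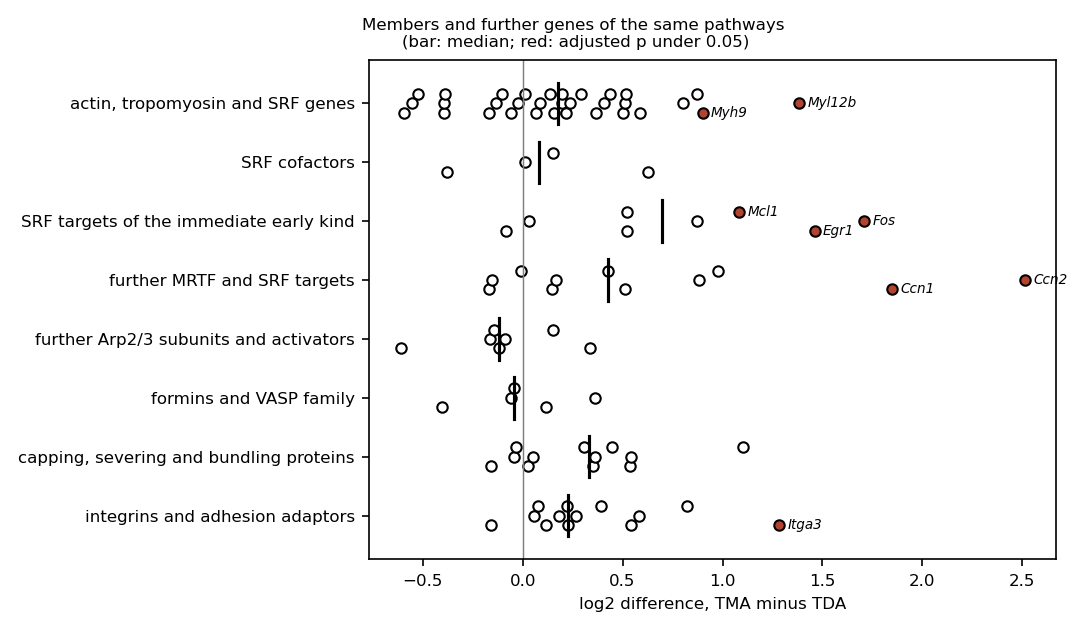
Log2 differences (TMA minus TDA) of the tested member genes (top row) and of the tested genes in 7 of the 8 further lists. Each point is a gene, vertical bars are list medians, and filled points passed an adjusted p of 0.05. The filled points all lie to the right of 0, with Ccn2 at 2.51 farthest out.

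Most epithelial markers were bright, with 6 of 7 above the filter, among them Cdh1, Krt8 and Krt18. Krt19 was below it, at 6.12 to 6.56 on the TMA arrays and 6.17 to 6.58 on the TDA arrays, and Epcam was not matched to a probe. The E-cadherin gene Cdh1 read 11.05 to 11.51 on the TMA arrays and 10.68 to 10.91 on the TDA arrays. Limma called 0 of these 6, with 3 at unadjusted p under 0.05, all with positive differences: Cdh1 at 0.47 (adjusted p = 0.231) and the tight junction genes Cldn3 at 0.71 (adjusted p = 0.108) and Cldn4 at 1.90 (adjusted p = 0.0576). The summed raw intensity of the epithelial list was 34774 to 61449 on the TMA arrays and 25096 to 50345 on the TDA arrays. Of 10 fibroblast markers 2 passed the filter, of 8 endothelial 2, of 8 leukocyte 3 and of 11 smooth muscle and myoepithelial 5, and limma called 0 of these 12, with 1, Myocd, at unadjusted p under 0.05. The summed raw intensity of the smooth muscle and myoepithelial list was 4167 to 4665 on the TMA arrays and 3747 to 5023 on the TDA arrays, that of fibroblast markers 2650 to 2738 and 2588 to 2910, that of endothelial markers 2066 to 2274 and 2052 to 2350, and that of leukocyte markers, mostly Cd14, 10382 to 23033 and 19113 to 33947. Of the smooth muscle and myoepithelial markers, Acta2, Des, Smtn, Myocd and Krt14 were above the filter, Krt14 at 7.12 to 7.29 on the TMA arrays and 7.15 to 8.62 on the TDA arrays, while Myh11, Cnn1, Tagln, Actg2, Krt5 and Trp63 were below it. The part of other cells in the results was not tested.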

How the data were processed

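RNA was isolated with Trizol, per the labels' protocols. The authors deposited a non-normalized intensity for each of 25697 probes on each array, and the lowest intensity on an array was 147.5 to 174.5, so no background had been subtracted. The authors also deposited normalized log2 values, whose normalization is not given in the sources used here. The mean raw intensity was 615 to 635 on the TMA arrays and 560 to 845 on the TDA arrays. Precision is limited by how many arrays there were.

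Intensities were corrected with normexp (offset 50), normalized by quantiles and tested on the log2 scale with lmFit and eBayes in limma 3.58.1 under R 4.3.3, two-sided, on all arrays. Differences are thus of log2 of corrected signal plus offset, which understates changes of dim genes. Platform annotation named 23846 probes and 1851 were unnamed. The fit had 4 residual and 8.14 prior degrees of freedom. On simulated data for this comparison over 12848 probes log2 changes of 1, 1.5, 2 and 3, given to 50 probes each, were recovered for 24, 36, 43 and 50 probes. There were 7 false calls, and 0 calls where nothing was altered. The simulated noise was normal and drawn independently for each probe and array, so shifts shared by many probes of an array were not simulated.

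Members and lists were chosen with earlier results of these data known. Values per array were given for members past the threshold, for Srf, Actb and Tpm1, and for the 2 tested members of each role with the largest differences. From each further list came up to 3 genes past the threshold, or the 2 with the smallest p. Myl12a, Myh10, Dstn and Cdh1 by array and the other probes of Actb and Pfn1 fall outside it and were chosen once their values were known. Alternatives varied the background correction, normalization, table, filter, arrays, replicate block, variance prior, weights and probe choice. They were extended to the called further genes and the second Pfn1 probe after seeing the data. The values of 1 of the 8 further lists are not reported here, though its genes are in the totals. Promoters were searched in Python 3.11.15, and plots made with matplotlib 3.10.9.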

Additional observations from a re-analysis of the deposited data

How the results depend on the processing

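The median difference of the tested members was 0.17 as reported and stayed above 0 in all 18 alternatives, from 0.09 with no filter to 0.21 without TMA1. The count of called members, 2 as reported, was 1 with an offset of 16, 1 with a trended robust prior, 1 with all probes of a gene averaged, 6 with array quality weights and, in limma, 0 with median scaling (4 at unadjusted p under 0.05) and 0 in an unmoderated test (5 at unadjusted p under 0.05). It ranged from 0 to 3 with 1 array left out. The count over all probes, 387, was 129 with median scaling, 198 without background correction, 135 in the authors' table, 232 with the stricter filter, 1906 with weights, 0 unmoderated (1793 at unadjusted p under 0.05) and 3 to 682 with 1 array left out. The count of further pathway genes, 6, was 3 with median scaling, 1 without background correction, 1 in the authors' table, 13 with weights, 3 with probes averaged, 0 unmoderated (12 at unadjusted p under 0.05) and 0 to 7 with 1 array left out. The cause of these shifts was not tested.

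Of the 22 members that the naming rule gave by array, 18 kept the sign of their difference in every alternative that tested them. Actb turned to -0.13 with median scaling, -0.12 in the authors' table, -0.0654 with weights and -0.66 with its probes averaged, and ranged from -0.29 to 0.17 with 1 array left out. Capg turned to 0.19 with weights, and with 1 array left out Cald1 ranged from -0.00346 to 0.39 and Msn from -0.0128 to 0.41. None of these values passed the threshold. Myl12b and Myh9 stayed above 0 in all 18 alternatives and lost their calls in 7 and 8 of them, with adjusted p up to 0.250 and 0.245.

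Same-numbered arrays deviated together only weakly, with correlations of 0.13, 0.01 and 0.03 across probes for numbers 1, 2 and 3. Deviations of 3 arrays from their own mean cancel out, so these correlations cannot settle whether the numbers pair the samples. With the replicate block 2 members, 6 further genes and 518 probes were called, against 2, 6 and 387 without it.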
